A study of Mus musculus with 6 samples.

Results

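The 10 genes described here code for the receptors (Notch1, Notch2, Notch3, Notch4), ligands (Dll1, Dll4, Jag1, Jag2) and target genes (Hes1, Hey1) of the Notch pathway. They were taken by name from the deposited count table, where all 10 were among its 21878 genes. RNA had been sequenced from Achilles tendon tissue of mice, with 3 libraries labelled sham and 3 labelled Achilles tendon amputation, called sham and amputation here. The series title places the comparison in a study of trauma-induced heterotopic ossification, bone formed outside the skeleton, and of the transcription factors KLF2 and PPARγ. No genotype, agent or transgene was named for either group. The sources used here do not give the strain, sex or age of the mice or the time after surgery. Whether each library stands for its own animal is not stated, and p-values here speak of variation among the 6 libraries alone, part of which may be technical.

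Notch signalling runs between touching cells. A Delta-like or Jagged ligand on one cell pulls on a Notch receptor of its neighbour, ADAM metalloproteases and then γ-secretase cut the receptor, and the freed intracellular domain enters the nucleus, where it binds RBPJ and Mastermind-like coactivators and switches on HES and HEY repressor genes. Fringe enzymes modify sugars on the receptor and so tune which ligands it answers to. In muscle and tendon the pathway is best known from blood vessels, where Notch1, Notch4 and Dll4 act in endothelium and Notch3 in mural cells, and from muscle satellite cells, which Notch keeps quiescent. In the skeleton Notch2 and Jag1 are known for their part in bone and cartilage formation.

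The libraries held 23916839 to 27140226 counts in sham and 28410231 to 31346730 in amputation, so that 1 count stood for 0.0322 to 0.0409 CPM (counts scaled to a common library size with TMM factors). All 7 genes of the tendon marker list were tested, with summed levels of 2280 to 5820 CPM in sham and 6700 to 16900 CPM in amputation. Skeletal muscle genes were abundant as well: a list of 21 took 18.7% to 20.6% of the counts in sham. In amputation they took 1.57% and 0.487% in libraries 1 and 2 and 15.1% in library 3, which stood apart from the other amputation libraries in that respect. In bulk tissue, fewer cells of a type and less RNA per cell cannot be told apart.

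The 4 receptor genes are shown first by the DNA just upstream of their starts, as a description. A link of these sequences to the expression values below was not tested. Of the members, 8 matched the RefSeq promoter table for GRCm38.p6 by symbol; Hes1 and Hey1 had no entry. The windows run from 250 to 31 bases before the annotated start, and 6 members had a window free of annotated exons. Capitals mark matches, on either strand, to a KLF core (CCACCC, or GGGTGG on the other strand) or to the N box bound by HES proteins (CACNAG, or CTNGTG on the other strand).
Notch1 (chr2:26503853-26504072, minus strand): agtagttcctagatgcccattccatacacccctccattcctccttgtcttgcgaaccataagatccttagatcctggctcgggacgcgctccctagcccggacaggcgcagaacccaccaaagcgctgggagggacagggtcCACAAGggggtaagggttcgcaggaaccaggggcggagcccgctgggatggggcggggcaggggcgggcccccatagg
Notch2 (chr3:98013288-98013507, plus strand): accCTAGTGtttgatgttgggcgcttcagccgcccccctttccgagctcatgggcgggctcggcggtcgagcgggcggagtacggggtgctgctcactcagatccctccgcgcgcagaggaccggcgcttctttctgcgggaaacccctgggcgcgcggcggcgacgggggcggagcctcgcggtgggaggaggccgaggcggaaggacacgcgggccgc
Notch3 (chr17:32166921-32167140, minus strand): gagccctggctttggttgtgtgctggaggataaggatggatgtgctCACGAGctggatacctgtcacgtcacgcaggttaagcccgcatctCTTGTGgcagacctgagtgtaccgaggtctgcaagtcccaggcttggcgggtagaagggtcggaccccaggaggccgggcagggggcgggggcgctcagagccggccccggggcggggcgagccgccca
Notch4 (chr17:34564045-34564264, plus strand): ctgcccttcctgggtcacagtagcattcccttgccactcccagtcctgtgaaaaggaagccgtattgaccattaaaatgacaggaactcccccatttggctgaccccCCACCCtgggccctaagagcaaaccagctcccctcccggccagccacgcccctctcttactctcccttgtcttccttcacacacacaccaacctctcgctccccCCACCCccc
The Notch4 window held 2 KLF cores, which began 143 and 39 bases before the start, and the Notch3 window held 2 N boxes, at 204 and 159 bases. Notch1 and Notch2 held 1 N box each, at 108 and 247 bases. The Notch1 window lies in an intron of a longer GENCODE transcript of the same gene. Among the 6 exon-free windows, 1 held a KLF core, 4 held an N box and 0 held the RBPJ core (TGGGAA, or TTCCCA on the other strand). Of 32851 RefSeq windows of the same 220 bases, 25% held a KLF core, 33.4% an N box and 19.4% an RBPJ core. These are matches of letters and no measure of binding.

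Of the 4 receptors, 3 were lower after amputation, and Notch2 had higher values that did not pass the test. Notch1, Notch3 and Notch4 fell to between 0.513 and 0.589 times their sham level. Among the 10 members together, 5 were lower (Notch1, Notch3, Notch4, Dll1 and Hey1), 0 were higher and 5 were not called in edgeR's quasi-likelihood test at an adjusted p under 0.05 (Benjamini-Hochberg adjustment, n = 3 per group). Over all 14561 tested genes, 12.3% were lower and 20.4% were higher by the same rule. At an unadjusted p under 0.05, 7 members were lower and 1 was higher, beside 20.6% and 26.5% of all tested genes. DESeq2 called 6 lower and 1 higher (19.1% and 23.1% of all genes), and limma-voom called 6 and 0 (15% and 20%). The median log2 fold change of the members was -0.81, beside -0.02 over all tested genes. The groups did not overlap for 8 of the 10 members, and for 54.8% of all tested genes.

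Notch4 (NCBI gene 18132; GRCm38.p6 chromosome 17, 34564286 to 34588543, plus strand) codes for a receptor best known from endothelium. Its level was 37.2, 47.2 and 44.6 CPM in sham 1 to 3 and 23.0, 19.4 and 23.8 CPM in amputation 1 to 3. Every amputation library lay below every sham library. The difference was log2 -0.96 ± 0.14 (SE, n = 3 per group), 1.95-fold lower, with an adjusted p of 0.00681 in edgeR's quasi-likelihood test. Notch4 was the only member called lower whichever of the 6 libraries was left out (log2 -1.06 to -0.88).

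Notch1 (NCBI gene 18128; chromosome 2, 26457902 to 26503822, minus strand), the broadly expressed receptor of stem cells, blood vessels and lymphocytes, stood at 120, 123 and 118 CPM in sham and at 77.7, 58.0 and 76.8 CPM in amputation. The sham values lay within a few CPM of each other and well above all 3 amputation values. It fell by 0.76 ± 0.15 on the log2 scale (adjusted p = 0.0136, edgeR's quasi-likelihood test). It was not called without sham 1 or sham 2, each with a log2 value of -0.77.

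Notch3 (NCBI gene 18131; chromosome 17, 32120820 to 32166896, minus strand) is the receptor of pericytes and vascular smooth muscle. Sham 1 and 2, at 232 and 249 CPM, were higher than sham 3, at 160 CPM. Amputation 1 to 3 stood at 135, 96.3 and 116 CPM, all below sham 3. Notch3 fell by 0.88 ± 0.22 on the log2 scale (adjusted p = 0.0285, edgeR's quasi-likelihood test). The call was lost without sham 1 (log2 -0.82), sham 2 (-0.78), amputation 1 (-1.01) or amputation 2 (-0.77). GENCODE places exons of genes outside the count table on the other strand across exons of Notch1 and Notch3. With the strand setting of the counting not given, reads of such pairs cannot be told apart.

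Notch2 (NCBI gene 18129; chromosome 3, 98013538 to 98150367, plus strand), the receptor known from bone and marginal zone B cells, differed in sign from the other receptors. Sham 1 to 3 stood at 244, 208 and 163 CPM, and amputation 1 to 3 at 391, 406 and 243 CPM. Amputation 1 and 2 were well above the sham range, while amputation 3 fell within it, level with sham 1. The difference was log2 0.76 ± 0.27, with a 95% interval of 0.11 to 1.40 and an adjusted p of 0.0709 in edgeR's quasi-likelihood test. With the replicate number as a block it was called higher (log2 0.74, adjusted p = 0.0308), as it was by DESeq2 (0.76) and without amputation 3 (0.96). The block assumes that libraries of the same number are paired, which no label states. Exons of Gm42820, a gene outside the count table, overlap those of Notch2 on the same strand, so strand cannot separate their reads.

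**Figure D1:**
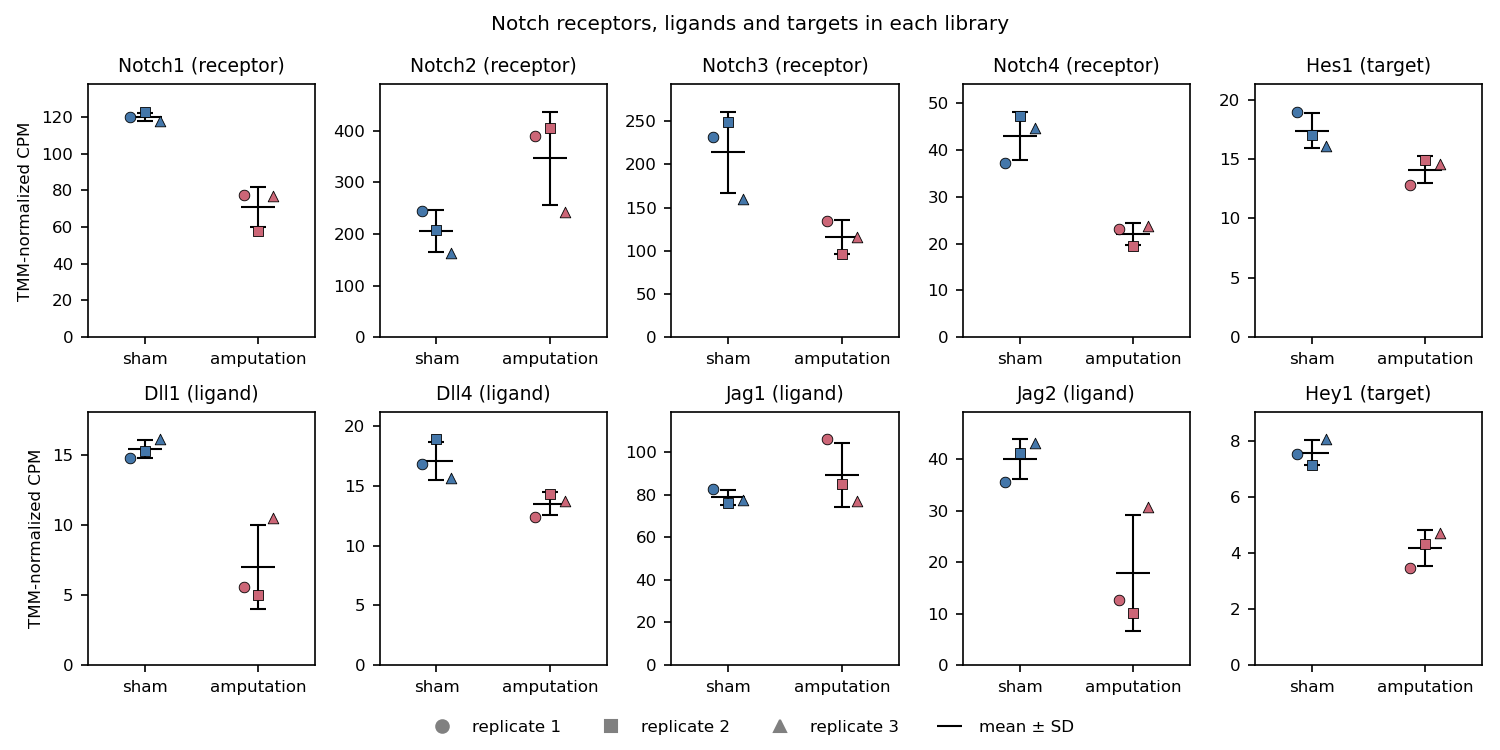
TMM-normalized CPM of each member on the y axis (linear, from 0) for the 3 sham and 3 amputation libraries on the x axis; symbols give the replicate number and bars the mean ± SD. Notch4 sits at 37.2 to 47.2 CPM in sham and 19.4 to 23.8 CPM in amputation, whereas amputation 3 lies apart from amputation 1 and 2 for Notch2 (243 CPM), Dll1 (10.5 CPM) and Jag2 (30.8 CPM).

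Per unit of length, Notch3 led the receptors in each sham library and Notch2 in each amputation library. FPKM, which divide counts by gene length and library total, allow levels of different genes to be compared. In sham, Notch3 was the most abundant receptor (26.5 ± 6.45 FPKM, SD, n = 3), followed by Notch2 (19.6 ± 4.41), Notch1 (12.7 ± 0.545) and Notch4 (6.47 ± 0.72). The ranges of Notch3 (19.1 to 31 FPKM) and Notch2 (15.0 to 23.8 FPKM) overlapped between libraries, but Notch3 exceeded Notch2 within each of the 3 sham libraries. In amputation the order was Notch2 (33.3 ± 9.97 FPKM), Notch3 (14.4 ± 3.47), Notch1 (7.51 ± 1.53) and Notch4 (3.34 ± 0.488), and the ranges of neighbours in this order did not overlap.

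The share of Notch2 among receptor transcripts was larger in each amputation library than in any sham library. It supplied 33.1%, 28.1% and 28.5% of the summed receptor FPKM in sham 1 to 3 and 56.8%, 64.9% and 47.0% in amputation 1 to 3, a difference of 26.3 percentage points. These shares do not depend on library scaling, and unlike its CPM they did not overlap between groups. Notch3 supplied 36.3% to 43.5% in sham and 20% to 29.1% in amputation. Notch1 went from 19.7% ± 2.74 to 13.1% ± 3.15 and Notch4 from 10.1% ± 2.17 to 5.84% ± 1.3. Each of the 4 differences had an exact two-sided permutation p of 0.1 (0.1 adjusted over 4 receptors), the smallest that 3 against 3 libraries allow, so no call at 0.05 was possible. The summed receptor level itself overlapped between groups, at 52.6 to 71.8 FPKM in sham and 46.7 to 71.7 FPKM in amputation.

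**Figure D2:**
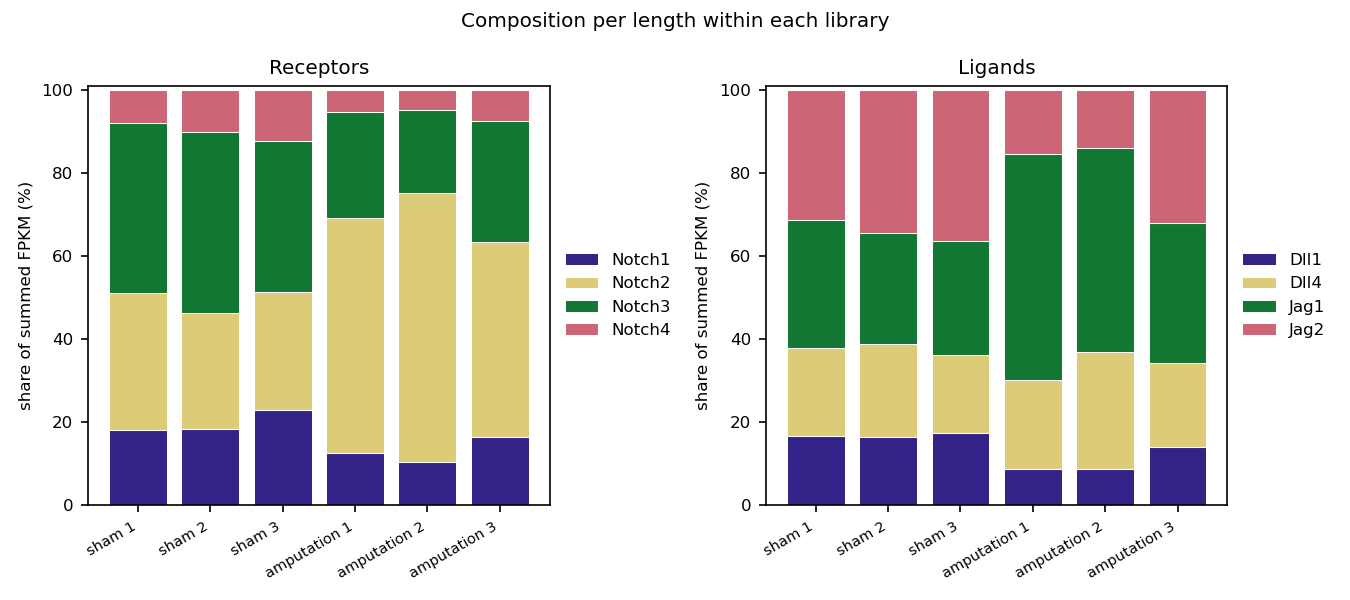
Share of each receptor in the summed FPKM of Notch1 to Notch4 (left) and of each ligand in the summed FPKM of Dll1, Dll4, Jag1 and Jag2 (right), in percent on the y axis, with 1 stacked bar per library on the x axis. Notch2 fills 28.1% to 33.1% of the receptor bar in sham and 47.0% to 64.9% in amputation; Jag1 fills 26.7% to 30.8% of the ligand bar in sham and 33.7% to 54.3% in amputation.

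Of the 4 ligands, Dll1 was lower after amputation, and Jag2, Dll4 and Jag1 were not called. Dll1 (NCBI gene 13388; chromosome 17, 15367354 to 15376932, minus strand) is the Delta-like ligand of somites and of muscle progenitors. Its level was 14.8, 15.3 and 16.1 CPM in sham and 5.58, 4.99 and 10.5 CPM in amputation. Amputation 3 was the highest of its group, with about the same distance to the sham values as to the other amputation libraries. Dll1 fell by 1.13 ± 0.29 on the log2 scale (adjusted p = 0.0302, edgeR's quasi-likelihood test). Its call was lost without sham 1 (log2 -1.17), sham 2 (-1.15), sham 3 (-1.13), amputation 1 (-0.99) or amputation 2 (-0.95).

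Jag2 (NCBI gene 16450; chromosome 12, 112907803 to 112929812, minus strand), a Jagged ligand, had the same shape across libraries. It stood at 35.6, 41.2 and 43.1 CPM in sham, at 12.6 and 10.2 CPM in amputation 1 and 2, and at 30.8 CPM in amputation 3. The groups did not overlap, but amputation 3 lay nearer to the sham libraries than to its own group. The difference of log2 -1.16 ± 0.41 (95% interval -2.15 to -0.17) had an adjusted p of 0.0725 in edgeR's quasi-likelihood test. Jag2 was called lower with the replicate block (log2 -1.33, adjusted p = 0.0394), by DESeq2 (-1.18), by limma-voom (-1.33), on log2(FPKM + 1) (-1.08) and without amputation 3 (-1.81). The pairing that the block assumes is not stated by any label.

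Dll4 (NCBI gene 54485; chromosome 2, 119325784 to 119335666, plus strand), the ligand of endothelial tip cells and arteries, stood at 16.8, 18.9 and 15.7 CPM in sham and 12.4, 14.3 and 13.7 CPM in amputation. The groups did not overlap, and the 3 amputation values lay close together. The difference was log2 -0.35 ± 0.13 (95% interval -0.66 to -0.04, adjusted p = 0.0821, edgeR's quasi-likelihood test). Jag1 (NCBI gene 16449; chromosome 2, 137081451 to 137116520, minus strand), a ligand of endothelium, mural cells and skeletal progenitors, stood at 82.8, 75.9 and 77.5 CPM in sham and 106, 85.1 and 76.9 CPM in amputation. Its groups overlapped, and the difference of log2 0.18 ± 0.15 had a 95% interval of -0.18 to 0.54 (adjusted p = 0.369, edgeR's quasi-likelihood test). Neither was called in any alternative fit. Genes on the other strand, outside the count table, share exon sequence with Dll1 and Dll4.

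Per unit of length, Jag2 led the ligands in sham (8.08 ± 0.605 FPKM), ahead of Jag1 (6.72 ± 0.45), Dll4 (4.96 ± 0.563) and Dll1 (3.97 ± 0.0534), with no overlap between neighbours. In amputation Jag1 led (7.70 ± 1.91 FPKM), followed by Dll4 (3.90 ± 0.122), Jag2 (3.58 ± 2.08) and Dll1 (1.80 ± 0.691). Jag2 ranged from 1.99 to 5.94 FPKM there and overlapped with both Dll4 and Dll1. Jag1 took 28.3% ± 2.16 of the summed ligand FPKM in sham and 45.7% ± 10.7 in amputation, and Jag2 34.1% ± 2.47 and 20.5% ± 10.1. The exact permutation p was 0.1 for the shares of Jag1 and Dll1, 0.2 for Jag2 and 0.5 for Dll4 (0.2, 0.2, 0.267 and 0.5 adjusted over 4 ligands). In amputation 3 the Jag2 share of 32.1% lay within the sham range of 31.4% to 36.3%. The summed ligand level was 23.2 to 24.5 FPKM in sham and 14.2 to 18.5 FPKM in amputation, with no overlap.

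Of the target genes, Hey1 was lower and Hes1 was not called. Hey1 (NCBI gene 15213; chromosome 3, 8663359 to 8667038, minus strand), a transcriptional repressor of arterial endothelium that is also induced by bone morphogenetic proteins, had the fewest reads of the members. It stood at 7.52, 7.16 and 8.06 CPM in sham and 3.48, 4.32 and 4.73 CPM in amputation, from 184 to 211 and 108 to 141 counts. Every amputation library was below every sham library. Hey1 fell by 0.86 ± 0.18 on the log2 scale (adjusted p = 0.0151, edgeR's quasi-likelihood test), but lost its call without sham 1 (log2 -0.87), sham 2 (-0.92) or sham 3 (-0.84). Hes1 (NCBI gene 15205; chromosome 16, 30065357 to 30067796, plus strand), a repressor that keeps progenitors from differentiating, stood at 19.0, 17.0 and 16.1 CPM in sham and 12.8, 14.9 and 14.6 CPM in amputation. Its groups did not overlap, but the gap was narrow, and the difference of log2 -0.30 ± 0.13 had a 95% interval of -0.61 to 0.01 (adjusted p = 0.114, edgeR's quasi-likelihood test). Hes1 was not called in any alternative fit.

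Some marker genes of the cell types that carry the pathway differed between the same libraries. The 14 endothelial markers summed to 1360, 1610 and 1470 CPM in sham and 990, 827 and 1120 CPM in amputation, with no overlap. Of these 14, 7 were lower and 1 was higher (Erg, an ETS transcription factor of endothelium and of cartilage), the median log2 fold change was -0.62, and none was at 0. The 7 lower were Flt1 (log2 -1.52), Vwf (-1.04), Kdr (-0.95), Robo4 (-0.89), Cldn5 (-0.73), Esam (-0.70) and Tie1 (-0.51). Pecam1 (-0.45) and Cdh5 (-0.58) were not called, and Plvap stood at -0.07. At an unadjusted p under 0.05 in edgeR's quasi-likelihood test, 12 were lower and 1 was higher. Over all tested genes those shares were 20.6% and 26.5%. The 7 arterial markers summed to 387 to 421 CPM in sham and 414 to 476 CPM in amputation. Most of that sum was Cxcl12, at 291 to 306 CPM in sham and 287 to 353 CPM in amputation. In the arterial list 1 gene was lower, Sox17 (log2 -1.31), and 1 was higher, Unc5b (0.84). The median log2 fold change of that list was -0.02. The 10 mural markers summed to 1900 to 2270 CPM in sham and 1970 to 2100 CPM in amputation. Of these, Myh11 and Mcam of smooth muscle and pericytes were lower, Pdgfrb and Cspg4 were higher, and Acta2 stood at log2 -0.01. The median log2 fold change over the 10 mural markers was -0.39. For the adjusted calls in these lists, the shares over all tested genes were 12.3% lower and 20.4% higher. The arterial counts (1 each way of 7) and mural counts (2 each way of 10) are near those shares. The part of these cell types in the lower values of Notch1, Notch3, Notch4 and Hey1 was not tested.

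Amputation 3 was the amputation library nearest to sham for 6 of the 10 members (Notch2, Notch4, Dll1, Jag1, Jag2 and Hey1) and for the summed muscle genes. The share of all tested genes with this order was not computed. For Notch4 (log2 ratio to the sham mean -0.85, beside -0.9 in amputation 1) the margin was small. The same held for Hey1 (-0.68, beside -0.81 in amputation 2). The skeletal muscle list summed to 185000 to 214000 CPM in sham, 14300 and 5050 CPM in amputation 1 and 2, and 158000 CPM in amputation 3. Markers of satellite cells, the stem cells of muscle, summed to 30.1 to 36.2 CPM in sham, 10.9 and 7.02 CPM in amputation 1 and 2, and 45.6 CPM in amputation 3. Dll1 and Jag2 were likewise lowest in amputation 1 and 2, and Notch2 was highest there. The median log2 fold change was -1.33 over the skeletal muscle list and -1.03 over the satellite cell list. In edgeR's quasi-likelihood test 0 of 21 and 0 of 7 were called, with 1 and 0 lower at an unadjusted p under 0.05; DESeq2 called 6 and 0 lower, and limma-voom 0 and 0. In a fit with the muscle list's mean log2 CPM as a covariate, Notch1 (log2 -0.60), Notch4 (-0.82) and Dll1 (-0.60) were called lower, beside 8.36% of all tested genes. Notch3 (-0.83) and Hey1 (-0.74) were not called then, and Notch2 stood at 0.27 and Jag2 at -0.42. With the endothelial list as the covariate, which had a correlation of -0.902 with the group over the 6 libraries, 0 members and 2 of all tested genes were called.

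**Figure D3:**
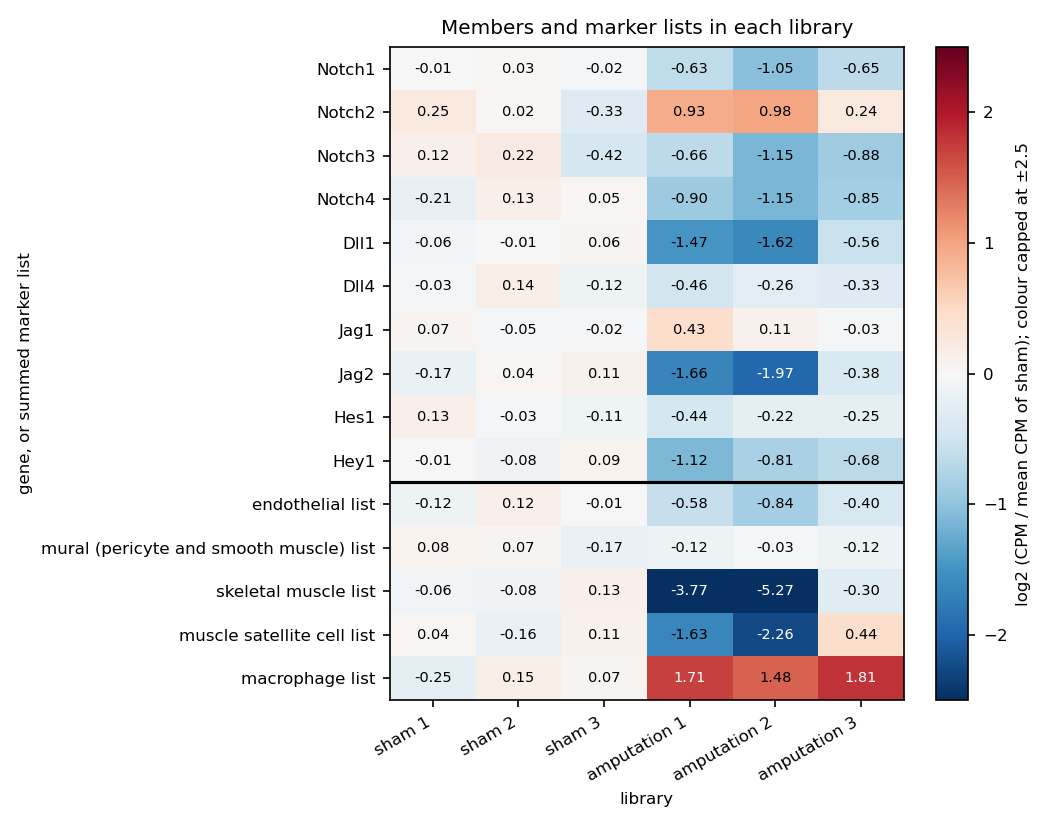
Log2 ratio of each library (x axis) to the mean CPM of sham for the 10 members and, under the black line, for the summed CPM of 5 marker lists (y axis); red is higher, blue is lower and the number in each cell is the ratio. Dll1 (-0.56) and Jag2 (-0.38) are nearest to sham in amputation 3, where the skeletal muscle list stands at -0.30, whereas Notch4 lies between -1.15 and -0.85 in all 3 amputation libraries.

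A further 73 genes of the pathway were grouped by role, and 66 had enough counts to be tested. Of these, 17 were higher, 9 were lower and 40 were not called, with a median log2 fold change of 0.10. Both called shares are near those of all tested genes, 20.4% higher and 12.3% lower. The 7 not tested were Dll3, Dlk2, Dner, Hes2, Hes3, Hes5 and Hes7. Hes5, a target used as a readout of Notch activity in the nervous system, had no count in any library, which allows at most 3 counts or 0.0967 to 0.123 CPM per library.

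Several receptor-cutting enzymes were higher. Of 10 genes of this list, 5 were higher and the other 5 were not called, beside 20.4% of all tested genes higher. Adam17, a metalloprotease that sheds many surface proteins, rose by log2 0.99 ± 0.13, from 47.5 ± 2.59 to 94.4 ± 10.3 CPM, and Furin, the convertase that matures the receptors, by 1.10 ± 0.22, from 97.3 ± 6.69 to 209 ± 58.1 CPM. Aph1b, a γ-secretase gene, rose less (0.44 ± 0.13). The 3 adjusted p-values, from edgeR's quasi-likelihood test, ran from 0.00533 to 0.0469. Aph1a, also of γ-secretase and named after its values were seen, rose by 0.44 ± 0.13 (edgeR adjusted p = 0.0473). Adam17 shares exon sequence on the other strand with Iah1, which stood at log2 0.76, so its value is uncertain. Aph1a shares exon sequence on the other strand with Car14, so its value is uncertain too. Aph1b has a near copy, Aph1c, so reads may be split between them. Adam10, the protease held to make the ligand-dependent cut, stood at 0.19 ± 0.14 and was not called; it was chosen after its values were seen. Furin lost its call without any 1 of the 3 sham libraries (0.87 to 1.28 over the 6 fits that each left out 1 library). Aph1b (0.34 to 0.52) was called without amputation 3 but in none of the other 5 such fits.

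Genes for sugar modification of the receptor split by enzyme. The fringe genes Mfng and Lfng, which extend O-fucose on Notch, were lower, at log2 -1.05 ± 0.18 (16 ± 2.24 to 7.74 ± 1.1 CPM) and -0.63 ± 0.17 (20 ± 1.97 to 13 ± 2.54 CPM). Rfng was the 1 gene of the list not called. Of its 5 genes, 2 were lower and 2 were higher, beside 12.3% and 20.4% of all tested genes. Pofut1, which adds the O-fucose, and Poglut1, which adds O-glucose, were higher, at 0.64 ± 0.14 and 0.52 ± 0.15. For the 4 called genes, edgeR's quasi-likelihood test gave adjusted p-values of 0.00915 to 0.0435. Mfng kept its call without each of the 6 libraries. Lfng lost it without sham 1 to 3 or amputation 2 (-0.79 to -0.51 over the 6 fits), and Pofut1 (0.54 to 0.74) and Poglut1 (0.40 to 0.60) kept theirs only in the fit without amputation 3.

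Of 8 tested genes for ligand uptake and other ligands, 2 were higher, 5 were not called and 1 was lower. Over all tested genes 20.4% were higher and 12.3% lower. Mfap2 and Mfap5, microfibril proteins of elastic fibres that can bind Jagged ligands and Notch, rose by log2 3.36 ± 0.36 and 2.0 ± 0.19. Mfap2 went from 5.67 ± 1.34 to 58.1 ± 21.9 CPM and Mfap5 from 53.0 ± 0.795 to 212 ± 48.6 CPM. Egfl7, a secreted protein of endothelium, went from 79.0 ± 6.16 to 50.1 ± 3.97 CPM, a log2 fold change of -0.66 ± 0.12, and lost its call without sham 2 (-0.73 to -0.59 over the 6 fits). It shares exon sequence on the other strand with Agpat2, which stood at log2 -0.62. On the same strand Egfl7 overlaps with Gm20532 and Mir126a, both outside the count table. Neurl1b, a ubiquitin ligase for Notch ligands, was not called (-0.39 ± 0.13), except without amputation 3 (log2 values of -0.50 to -0.34 over the 6 fits). Mfap2, Mfap5 and Egfl7 had adjusted p-values of 0.00333 to 0.0118 (edgeR's quasi-likelihood test).

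Most genes of the nuclear list were not called. Rbpj, the DNA-binding partner of the receptors, stood at log2 0.23 ± 0.18 (95% interval -0.21 to 0.67), and Maml1 to Maml3, the coactivators, at 0.43 ± 0.18, 0.19 ± 0.19 and -0.26 ± 0.15; these 4 were chosen after their values were seen. In the whole list of 21 nuclear and corepressor genes, 2 were higher, 3 were lower and 16 were not called. The shares over all tested genes were 20.4% higher and 12.3% lower. The corepressors Tle1 (-0.75 ± 0.15) and Spen (-0.47 ± 0.13), the latter a repressor that binds RBPJ, were lower, as was the corepressor Ncor1 (-0.56 ± 0.17, edgeR adjusted p = 0.047), named after its values were seen. The deacetylase Hdac1 was higher (0.62 ± 0.17). Spen shares exon sequence on the other strand with Zbtb17, which stood at log2 -0.94, so its value is uncertain. Ncor1 likewise shares exon sequence on the other strand with Pigl and Ttc19, so its value is uncertain too. Tle1 lost its call without sham 2 (-0.85 to -0.62 over the 6 fits), and Spen (-0.55 to -0.40) and Hdac1 (0.49 to 0.74) kept theirs only without amputation 3. Rbpjl, an RBPJ-like factor of the pancreas, had the largest fitted rise of the 66 genes (5.30 ± 0.78), from 5, 1 and 0 counts in sham to 142, 95 and 60 in amputation. A fold change from so few counts depends on the prior count. Its exons overlap on the other strand with Matn4, which went from 6.94 ± 3.5 to 336 ± 94.9 CPM, so its value is uncertain. Over Tle1, Spen, Hdac1 and Rbpjl the adjusted p was 0.00662 to 0.0358 (edgeR's quasi-likelihood test).

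Among genes for receptor turnover, 3 of 10 were higher, 6 were not called and 1 was lower. Of all tested genes 20.4% were higher and 12.3% lower. Numbl, a relative of the Notch inhibitor Numb, rose by log2 1.43 ± 0.25, from 21.1 ± 2.38 to 56.9 ± 17 CPM, and the E3 ligase gene Dtx4 by 0.82 ± 0.12, from 40.3 ± 3.3 to 71.0 ± 5.51 CPM. Both kept their calls without each of the 6 libraries. Itch, a ubiquitin ligase, rose by 0.46 ± 0.12, and Fbxw7, which marks the intracellular domain for degradation, fell by 0.58 ± 0.17 on the log2 scale. Itch (0.38 to 0.54) and Fbxw7 (-0.77 to -0.48) kept their calls only without amputation 3. The adjusted p-values of Numbl, Dtx4, Itch and Fbxw7 were 0.0069 to 0.0439 (edgeR's quasi-likelihood test). Exons of Numbl overlap on the same strand with Gm44641, outside the count table.

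Other genes of the HES and HEY families, and genes listed with them as possible targets, were mixed. Whether each of these genes answers to Notch in this tissue was not tested. Of 12 tested, 3 were higher, 2 were lower and 7 were not called, beside 20.4% of all tested genes higher and 12.3% lower. The lower genes were Gata2, a transcription factor of endothelium and blood progenitors (-1.46 ± 0.16, 15.4 ± 2.28 to 5.58 ± 0.22 CPM), and Sox17, a factor of arterial endothelium that also stands in the arterial marker list (-1.31 ± 0.20, 19.2 ± 2.31 to 7.73 ± 1.68 CPM). Both kept their calls without each of the 6 libraries. Hes6, which works against Hes1, rose by log2 0.86 ± 0.20, and Nfkb2, a subunit of NF-κB, by 0.54 ± 0.10. Hes6 lost its call without sham 1, sham 2 or sham 3 (0.67 to 0.96 over the 6 fits), and Nfkb2 without sham 2 or 3 (0.49 to 0.58). These 4 genes had adjusted p-values of 0.00388 to 0.0219 (edgeR's quasi-likelihood test). Nfkb2 shares exon sequence on the other strand with Psd, at log2 1.45 and no more than 1.0 CPM on average. Named after their values were seen, Myc, a growth-promoting transcription factor, was the third higher gene (1.14 ± 0.28, adjusted p = 0.0263, edgeR's quasi-likelihood test), and Hey2 (-0.83 ± 0.32) and Heyl (-0.16 ± 0.26) were not called.

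**Figure D4:**
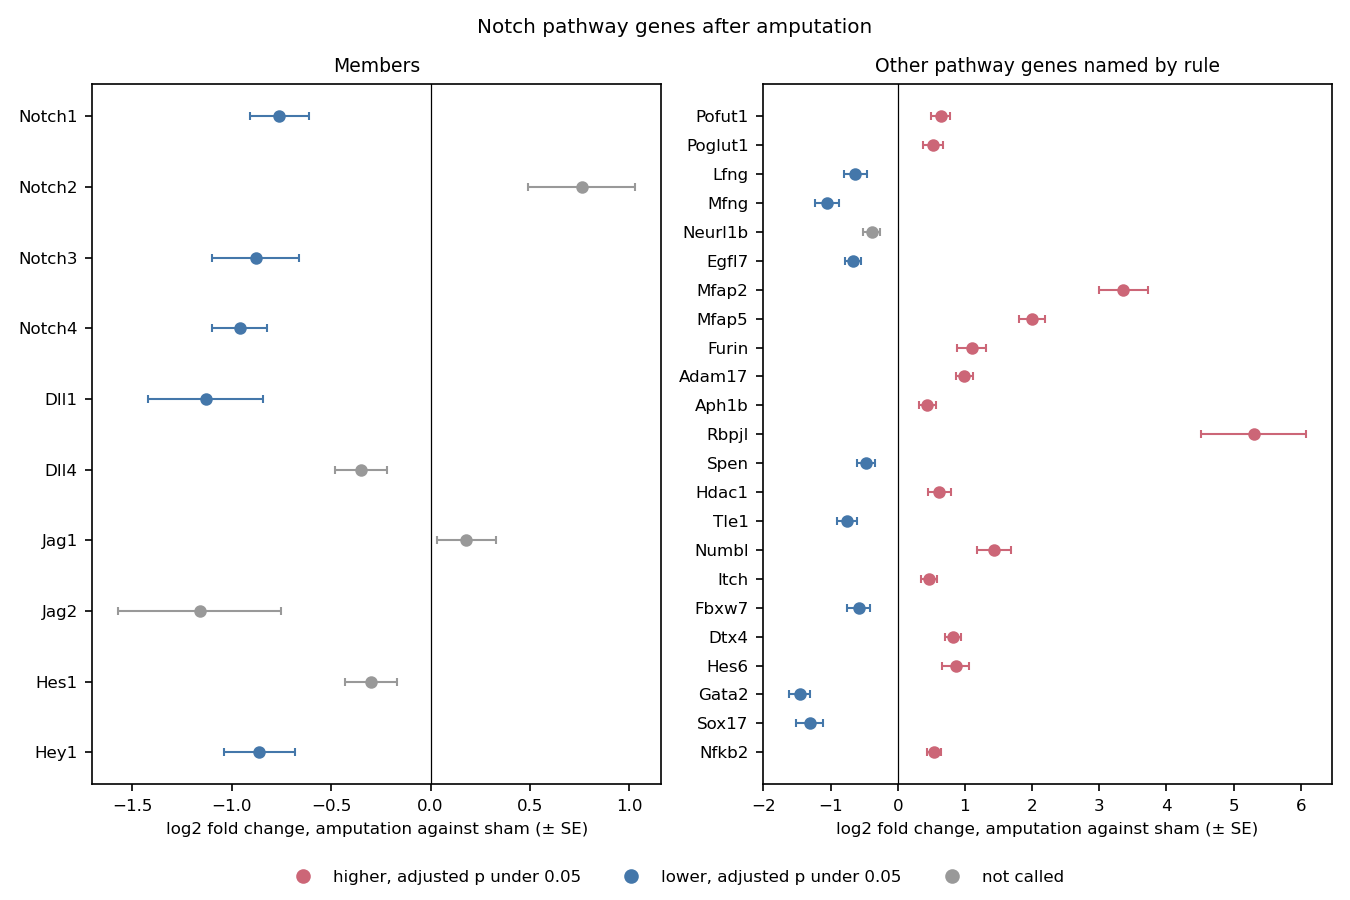
Log2 fold change of amputation against sham on the x axis (point, with SE as bar) for the 10 members (left) and for other pathway genes named by rule (right, wider axis), 1 gene per line on the y axis; colour gives the call in edgeR's quasi-likelihood test. The receptors run from Notch4 at -0.96 to Notch2 at 0.76, and the cleavage genes Furin, Adam17 and Aph1b lie above 0.

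The members were also compared with all protein-coding genes of at least 5 CPM by the Pearson correlation of log2 CPM over the 6 libraries, as a description. Both groups enter these values, and so do the muscle share and library size. Dll1 was most like Ldhb (r = 0.9998) and Acadl (0.9997), genes of lactate and fatty acid metabolism, and Jag2 most like Dnajb5 (0.9997) and Slc30a2 (0.9996). Notch4 was most like Sntb1 (0.9989) and Tiam1 (0.9961), Notch1 most like Card10 and Rasgrp2 (0.9986 each), and Notch3 most like Cers4 (0.9954) and Nrip2 (0.9943). For Notch2 the closest genes were Sec16b (0.9984) and Wsb1 (0.9983), and for Hey1 they were Dpp9 (0.9959) and Atg10 (0.9951). The members with the smallest differences had lower values: Hes1 with Preb (0.9876) and Vps11 (0.9806), Dll4 with Nup88 (0.9804) and Selo (0.9686), and Jag1 with Nmi (0.9784) and Gnaq (0.9740). Among the members themselves, Dll1 and Jag2 were closest (0.99), Notch1 and Notch4 followed (0.97), and Notch2 ran against Jag2 (-0.96) and Dll1 (-0.95).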

How the data were processed

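The 3 sham and 3 amputation libraries were, per the labels' protocols, stranded TruSeq libraries of mirVana-purified total RNA, depleted of ribosomal RNA with Ribo-Zero Gold. The submitters' processing notes name Trimmomatic, HISAT2 and the build GRCm38.p6, without versions. Which program counted the reads, and whether it used strand, is not given in the sources used here. The authors deposited whole, unnormalized read counts per gene, with a column per library. The authors also deposited FPKM, which equal those counts divided by a gene length and by the library total: the implied length was constant over libraries, within a relative spread of 0.001, for 100% of the 15164 genes with counts in all 6.

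The members and lists were chosen with earlier results of these data known. Counts were fitted in R 4.3.3 with edgeR 4.0.16 over the whole table: filterByExpr kept 14561 genes, TMM scaled the libraries, and p-values of the quasi-likelihood test were adjusted by Benjamini-Hochberg over all of them (threshold 0.05). CPM are TMM-normalized. Standard errors were obtained as the size of the log2 fold change over the square root of the F statistic. The script was tested on simulated data. Library totals of 23916839 to 31346730 set the counting precision. Even the most alike libraries, sham 1 and 2, had a chi-square per gene of 15.6 between their counts, so none was counted as a duplicate. Libraries with the same number deviated together from their group means (correlations of 0.259, 0.13 and 0.409 over all tested genes). Sham 1 with amputation 2 (0.244) and sham 2 with amputation 1 (0.115) were about as alike, so the data do not single out the pairs of libraries 1 and 2. No label states a pairing. Since each same-number correlation was above 0.1, an edgeR fit with the replicate number as a block was run.

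Named are all 10 members and, of each of 6 pathway lists, the 4 genes with the smallest p, plus the first in the other direction where genes were called both ways; 1 gene so chosen is not reported here. For likeness, the 2 closest genes of each member are named. Myh11, Mcam, Pdgfrb, Cspg4, Acta2, Erg, Vwf, Flt1, Kdr, Robo4, Cldn5, Esam, Tie1, Pecam1, Cdh5, Plvap, Cxcl12, Unc5b, Trp63, Spp1, Runx2, Ibsp, Alpl, Dmp1 and the overlapping genes Matn4, Agpat2, Zbtb17, Iah1 and Psd, and the genes so marked in the text, were chosen after their values were seen. Exon overlaps came from GENCODE M21 and promoter sequences from RefSeq, both on GRCm38. Alternatives were other scalings, DESeq2 1.42.0, limma 3.58.1 (voom, and log2 FPKM with a pseudocount of 1 or 0.1), other filters, the block, muscle and endothelial covariates, and each library left out in turn. Python 3.11.15, pandas 2.3.3, scipy 1.17.1 and matplotlib 3.10.9 were used for tables, exact tests and figures.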

Additional observations from a re-analysis of the deposited data

How the results depend on the processing

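The 5 members called lower stayed within 4 to 6 under other scalings, other filters, DESeq2, limma-voom, limma on FPKM and the replicate block. They numbered 3 with the muscle covariate and 0 with the endothelial covariate, and 1 to 6 with 1 library left out. Members called higher, 0 at first, numbered 1 with DESeq2 and with the replicate block, and 0 to 1 with 1 library left out. The 17 other pathway genes called higher numbered 11 on log2(FPKM + 1) without a filter, 8 with the muscle covariate, 0 with the endothelial covariate and 6 to 23 with 1 library left out. The 9 called lower numbered 0 with the endothelial covariate and 3 to 15 with 1 library left out. Under the endothelial covariate Notch2 (log2 -0.07) and Jag2 (0.46) changed sign; that fit called 2 genes higher and 0 lower of all tested, and the cause was not tested. Over all tested genes, 2968 were higher and 1789 lower; with the muscle covariate 1979 and 1217, with DESeq2 3362 and 2776, and without amputation 3 4212 and 4392. Leaving out a library leaves 2 in a group. With the replicate block in edgeR, of the members Jag2 and Notch2 gained a call, and none lost one. Shares of receptors and ligands moved by less than 1 SD (the larger of the 2 groups' SDs) when counts replaced FPKM. The small difference of Dll4 changed sign with counts (-0.679 percentage points). With 3 libraries per group, leaving 1 out cannot move a difference by 1 SD, so that rule is no check on those fits. Over them the Notch2 share difference ran from 22.0 to 30.9 percentage points, and that of Jag2 from -19.4 to -10.3. At 108 to 211 counts per library, Hey1 was the member with the least depth.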

Other observations

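Markers of cell types outside vessels and muscle also differed between the libraries in which the Notch genes were measured. All 10 macrophage markers were higher in edgeR's quasi-likelihood test (summed 309 to 409 CPM in sham, 1030 to 1290 CPM in amputation), as were all 7 chondrocyte markers (83.2 to 180 and 2290 to 10600 CPM), all 6 cell cycle genes (34.5 to 38.3 and 102 to 149 CPM) and 3 of the 4 tested lymphocyte markers (1.74 to 2.57 and 9.96 to 15.7 CPM). Of 7 tendon markers 3 were higher, and of 6 tested osteoblast markers 2, Runx2 and Spp1 (summed 121 to 412 and 525 to 2290 CPM). Spp1 alone made up 1400, 2170 and 492 CPM of that sum in amputation, and Ibsp (log2 -0.85), Alpl (-0.48) and Dmp1 (-0.03) were not called. All 5 adipocyte markers were lower (765 to 1370 and 160 to 289 CPM), with 2 of 7 Schwann cell markers (667 to 1470 and 568 to 649 CPM) and 1 of 6 tested erythroid markers (191 to 593 and 103 to 274 CPM). The erythroid sums overlapped between the groups. These counts stand beside 20.4% of all tested genes higher and 12.3% lower by the same rule. Skin markers summed to 9.68 to 15.0 CPM in sham and 4.29 to 15.6 CPM in amputation. Trp63 alone stood at 8.29 to 11.5 CPM in sham and 1.55 to 10.9 CPM in amputation. The keratin genes and Lor reached at most 1.55 CPM in any library.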
